A study of Homo sapiens with 6 samples.

Results

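Secretogranins and related neuroendocrine genes were followed across the libraries of a pancreatic cancer cell line with and without a knockdown of PPP2R1A. The set holds 9 genes of the 42540 rows of the count table, which are SCG2, SCG3, SCG5, CHGA, CHGB, VGF, ENO2, INSM1 and NTS, and it was chosen on the loss of SCG2 in the knockdown libraries 1 and 2. Values of the members in those libraries are therefore given as a description without a test. Of the 9 members, 6 had a count in at least 1 library, and SCG3, SCG5 and INSM1 were at 0 in all 6. The row with the highest total stood for a symbol that occurred more than once.

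RNA was sequenced from MiaPaCa2 cells, a human line of pancreatic ductal adenocarcinoma (PDAC), that carry CasRx, an RNA-guided enzyme of the Cas13 family that cuts RNA. The 3 control libraries (genotype label WT) came from the CasRx cells without a guide, and the 3 knockdown libraries (label KD) from CasRx cells with a stable guide against PPP2R1A, the scaffold subunit of the phosphatase PP2A. All 6 carry CasRx, all come from 1 cell line, and the study describes them as replicates of 3 weeks, so that the number of a library is read here as its week. Library totals lay between 28499214 and 45040033 counts, and 3 counts, taken as the limit that a count of 0 allows, correspond to between 0.0666 and 0.105 CPM. Levels are given as CPM, a gene's count scaled to a fixed library total, after TMM normalization over the 6 libraries.

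Granins are acidic proteins that are packed with peptide hormones into the dense-core granules of endocrine cells and neurons, where proteases cut them into smaller peptides. Pathologists use chromogranins, synaptophysin and neuron-specific enolase as markers of neuroendocrine differentiation, and the repressor REST keeps many of these genes low in other tissues. Several granin promoters carry a cyclic AMP response element (CRE), a short site that factors of the CREB family bind.

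The targeted gene separated the libraries before any member did. PPP2R1A was at 590, 624 and 648 CPM in control 1, 2 and 3 and at 143, 143 and 545 CPM in knockdown 1, 2 and 3. Its log2 fold change was -2.09 (standard error, SE, 0.0851) in knockdown 1 and 2 against control 1 and 2 (edgeR quasi-likelihood test, Benjamini-Hochberg adjusted p = 0.0107). With a block for the replicate number, the smallest adjusted p of any gene in that comparison was 0.063 (edgeR), so that this call was lost with all others. In week 3 its log2 fold change was -0.25 (edgeR adjusted p = 0.309), so the library labelled knockdown 3 did not differ detectably from control 3 in the targeted gene. For this reason 2 comparisons are kept apart below, that of knockdown 1 and 2 with control 1 and 2 (n = 2 libraries each) and that of knockdown 3 with control 3 (n = 1 library each).

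Promoters were read because CRE sites are the best known common element of these genes. The RefSeq table for GRCh38.p14 held 6 of the 9 members, each with 250 bases before and 50 bases after the start of the gene. The CRE motif TGACGTCA, which reads the same on both strands, was present in the promoters of VGF and CHGA, that is in 2 of 6, against 1.85% of all 35116 promoters of the table. In the following sequences of the 150 bases before the start, shown 5′ to 3′ on the strand of the gene, capitals mark the CRE of VGF (first base at -79) and of CHGA (first base at -54) and, in ENO2, a match to the AP-1 motif TGACTCA (first base at -94). The promoter of NTS, which held no exact match to either motif, is shown for comparison. Near matches were not searched in any promoter.
VGF (chr7:101165570-101165719, minus strand): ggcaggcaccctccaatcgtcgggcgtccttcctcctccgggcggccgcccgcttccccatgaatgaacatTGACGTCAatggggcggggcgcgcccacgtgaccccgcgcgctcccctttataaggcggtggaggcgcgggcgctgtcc
CHGA (chr14:92923000-92923149, plus strand): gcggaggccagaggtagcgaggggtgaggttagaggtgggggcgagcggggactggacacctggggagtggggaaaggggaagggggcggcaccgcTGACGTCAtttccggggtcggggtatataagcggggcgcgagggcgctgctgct
ENO2 (chr12:6914430-6914579, plus strand): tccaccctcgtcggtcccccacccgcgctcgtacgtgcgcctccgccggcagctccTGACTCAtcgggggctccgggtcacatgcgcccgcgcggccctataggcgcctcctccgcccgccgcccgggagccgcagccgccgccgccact
NTS (chr12:85874145-85874294, plus strand): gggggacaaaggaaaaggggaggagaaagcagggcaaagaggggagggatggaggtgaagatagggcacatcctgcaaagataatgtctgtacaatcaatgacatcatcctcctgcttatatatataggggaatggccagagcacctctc

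The AP-1 search took TGACTCA and TGAGTCA on both strands, and 4.95% of all promoters held a match. The shorter motif TGACG, or CGTCA on the other strand, lies inside each CRE and was found in 5 of the 6 promoters and in 24.6% of all promoters. SCG2, CHGB and INSM1 are not in the table. The 2 genes with a full CRE did not share a course, since VGF was well expressed in every library and CHGA was at 0 in 5 of 6. A match describes the sequence only, and binding was not measured.

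SCG2, which encodes the granin from which secretoneurin is cut, was the most abundant member in the control cells. Its level was 455, 390 and 86.6 CPM in control 1, 2 and 3 and 1.91, 1.45 and 397 CPM in knockdown 1, 2 and 3. The counts behind these levels were 12936, 10825 and 2767 in the controls and 69, 68 and 16945 in the knockdown libraries, so the transcript was still counted in knockdown 1 and 2, well above the limit of 3 counts. The mean was 423 ± 46.1 CPM (SD, n = 2) in control 1 and 2 and 1.68 ± 0.323 CPM (SD, n = 2) in knockdown 1 and 2, a level 252-fold lower. The fitted log2 fold change was -7.99 (SE 0.23). Knockdown 3 stood within the range of the controls, and control 3 stood apart from control 1 and 2, below both.

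VGF, a granin-like precursor of several secreted peptides, was the other granin with a substantial level. It was at 92.2, 79.5 and 82.4 CPM in control 1, 2 and 3 and at 40.5, 43.5 and 129 CPM in knockdown 1, 2 and 3. Knockdown 1 and 2 lay below all 3 controls and knockdown 3 lay above them. The mean was 85.8 ± 9.02 CPM in control 1 and 2 and 42.0 ± 2.15 CPM in knockdown 1 and 2 (SD, n = 2 each), a level 2.04-fold lower, with a fitted log2 fold change of -1.04 (SE 0.118).

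The chromogranins are the abundant granins of endocrine granules and were scarce in these cells. CHGB, chromogranin B, was at 1.09, 0.288 and 0.876 CPM in control 1, 2 and 3 and at 4.83, 3.86 and 0.305 CPM in knockdown 1, 2 and 3, from 8 to 181 counts a library. Its course was opposite to that of SCG2, with knockdown 1 and 2 above all other libraries and a mean 6.3-fold higher than in control 1 and 2 (0.689 ± 0.568 and 4.35 ± 0.691 CPM, SD, n = 2 each). The fitted log2 fold change of 2.64 (SE 0.663) moved to 3.88 without control 1 and to 1.99 without control 2. CHGA, chromogranin A, had 10 counts in knockdown 1, which is 0.276 CPM, and 0 in the other 5 libraries. Set against a floor of 3 counts over control 1 and 2, CHGA was 2.45-fold higher in knockdown 1 and 2. This value rests on knockdown 1 alone and leaves out the counting error of its 10 counts.

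**Figure D1:**
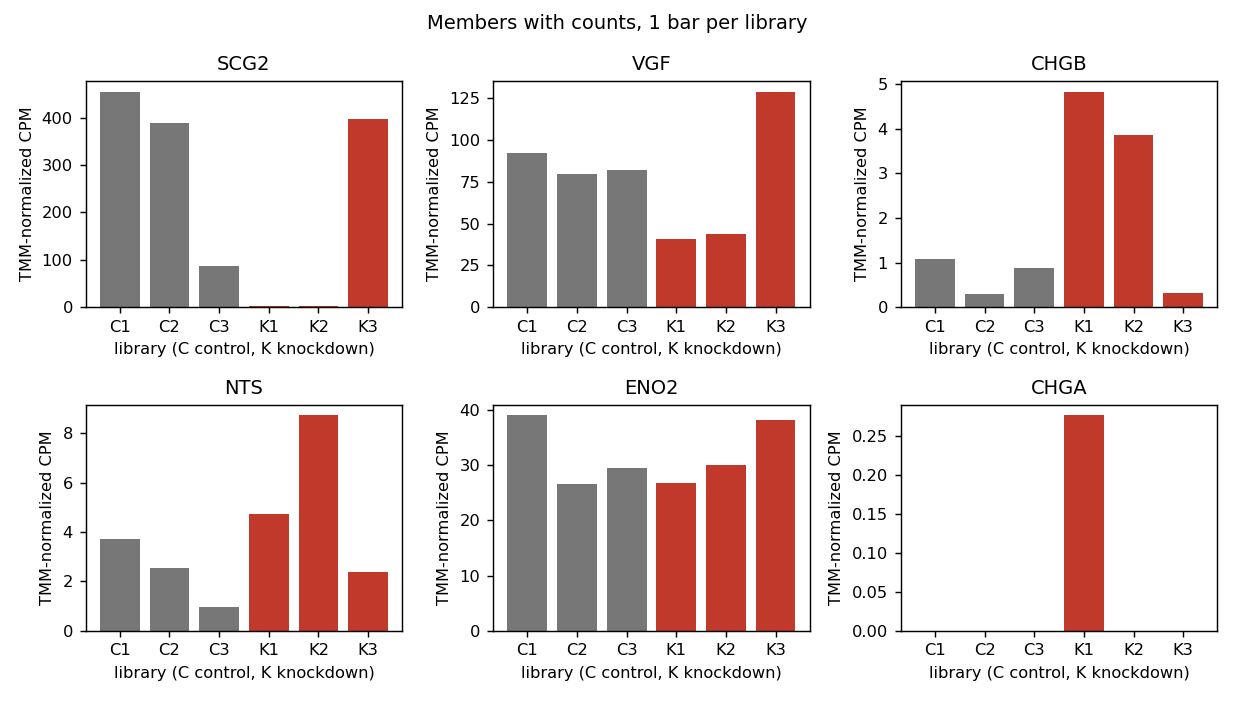
The 6 members with counts, with TMM-normalized CPM along the vertical axis, 1 bar per library and controls (C1 to C3) in grey and knockdown libraries (K1 to K3) in red. SCG2 was at 1.91 and 1.45 CPM in K1 and K2 and at 397 CPM in K3, whereas CHGB was highest in K1 and K2; the scales differ between panels.

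NTS encodes neurotensin, a gut and brain peptide hormone. It was at 3.73, 2.56 and 0.97 CPM in control 1, 2 and 3 and at 4.72, 8.72 and 2.37 CPM in knockdown 1, 2 and 3. Each knockdown library lay above the control of its own number, by log2 ratios of 0.34, 1.75 and 1.24, but the groups overlapped, since knockdown 3 lay below control 1 and 2. The mean in knockdown 1 and 2 was 6.72 ± 2.82 CPM against 3.14 ± 0.829 CPM in control 1 and 2 (SD, n = 2 each), and most of that difference came from knockdown 2.

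ENO2, neuron-specific enolase, is a glycolytic enzyme of neurons and endocrine cells that many tumour lines also express. It was at 39.0, 26.6 and 29.5 CPM in control 1, 2 and 3 and at 26.8, 30.0 and 38.2 CPM in knockdown 1, 2 and 3, so that the groups overlapped fully. The means of control 1 and 2 (32.8 ± 8.74 CPM) and knockdown 1 and 2 (28.4 ± 2.28 CPM, SD, n = 2 each) differed by less than the spread of the controls. ENO2 shares its locus in the table with DSTNP2, LRRC23 and RPL13P5, so its counts may include reads of these genes.

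The other 3 members had no count. SCG3 encodes a granin that binds chromogranin A in the granule, INSM1 is a zinc finger factor of neuroendocrine differentiation, and SCG5 encodes a chaperone of the prohormone convertase PCSK2. The SCG5 row shares its locus with ARHGAP11A and with the readthrough ARHGAP11A-SCG5, which had 110, 982 and 855 counts in control 1, 2 and 3 and 1380, 188 and 951 in knockdown 1, 2 and 3. The 0 of SCG5 is therefore uncertain, because reads of that locus may have been counted under the readthrough.

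Levels were compared between members per kb of exon. In control 1 and 2 the order was SCG2 (155 ± 17.0 CPM per kb), VGF (31.7 ± 3.34), ENO2 (7.65 ± 2.04), NTS (2.02 ± 0.533) and CHGB (0.152 ± 0.125, SD, n = 2 each), and the 2 libraries of no neighbours in this order overlapped. In knockdown 1 and 2 the order was VGF (15.5 ± 0.795 CPM per kb), ENO2 (6.64 ± 0.533), NTS (4.32 ± 1.82), CHGB (0.958 ± 0.152) and SCG2 (0.617 ± 0.119), again with no overlap between neighbours. SCG2 thus moved from the first to the last of these 5 genes. In knockdown 3 SCG2 was again the highest, at 146 CPM per kb, followed by VGF at 47.7.

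Libraries of week 3 were not used to choose the members, and here a test could be made. Each group of week 3 holds 1 library, so the spread was taken from the other weeks, with the lone libraries assumed to vary like them. Over all 15386 genes tested, 0.182% were called higher and 0.091% lower in knockdown 3 than in control 3. Of the 5 members that passed the filter on low counts, edgeR called 0. At an unadjusted edgeR p under 0.05 stood 2 of the 5, against 3212 of all 15386 genes tested. DESeq2 called 1 member, SCG2, while over all genes tested it called 707 higher and 710 lower. The DESeq2 adjusted p of SCG2 was 6.31e-11, against a range up to 0.145 over the other settings, none of them under 0.05. SCG2 was 4.59-fold higher in knockdown 3 than in control 3, with a log2 fold change of 2.20 (SE 0.243, edgeR adjusted p = 0.0662). VGF was 1.56-fold higher (log2 fold change 0.65, SE 0.17, edgeR adjusted p = 0.159). The log2 fold changes of NTS, ENO2 and CHGB were 1.28 (SE 0.615), 0.37 (SE 0.327) and -1.51 (SE 0.995), with edgeR adjusted p of 0.34, 0.59 and 0.469.

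**Figure D2:**
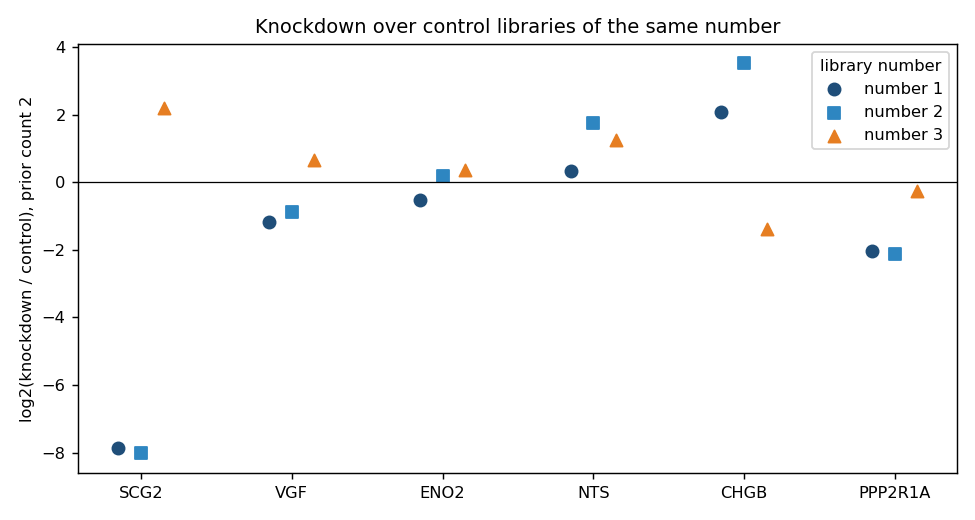
Log2 ratio of each knockdown library to the control library of the same number (vertical axis, prior count of 2), with 1 point per number, for 5 members and the targeted gene PPP2R1A. SCG2 stood at -7.86 and -8.02 for numbers 1 and 2 and at 2.20 for number 3; VGF and CHGB also changed sign for number 3, and NTS was above 0 for all 3.

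With all 3 knockdown libraries set against all 3 controls, SCG2 spread more within either group than between the groups. It was at 311 ± 197 CPM in the controls and 133 ± 228 CPM in the knockdown libraries (SD, n = 3 each), with a fitted log2 fold change of -1.22 (SE 1.95). The same fit gave -0.25 (SE 0.466) for VGF, 1.99 (SE 0.998) for CHGB and 1.12 (SE 0.652) for NTS. In this comparison 0.0065% of the genes tested were called, that is 1 gene, which is no member.

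The place of each member on its chromosome was checked against the genes beside it, by the gene order of RefSeq. Around SCG2 on chromosome 2 the 100 nearest tested genes had a median log2 fold change of 0.59 in knockdown 1 and 2, opposite in sign to SCG2, and the coding genes on either side, ACSL3 and AP1S3, were at 0.93 and 1.06. The tested row next to SCG2 is MLXP1, a pseudogene, with 128, 179 and 10 counts in control 1, 2 and 3 and 1, 0 and 216 in knockdown 1, 2 and 3. Like SCG2, MLXP1 was near 0 in knockdown 1 and 2, low in control 3 and high in knockdown 3, but control 2 lay above control 1 (it was picked out after its values were seen). The medians around VGF, CHGB, NTS and ENO2 were 0.06, 0.07, 0.14 and 0.45.

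The course of SCG2 over the 6 libraries was shared by genes that are not granins. Among 10683 genes whose mean level reached 5 CPM, those with the highest Pearson correlation to SCG2 on the log2(CPM + 0.5) scale were F2RL1 (r = 0.9998), a protease-activated receptor, ATP8B1 (r = 0.9984), a phospholipid flippase, RNF32-DT (r = 0.998), a noncoding transcript, ADSS2 (r = 0.9979), an enzyme of AMP synthesis, and CTSC (r = 0.9978), the lysosomal protease cathepsin C. These coefficients describe 6 libraries of 1 cell line, which share depth and preparation, and carry no p. F2RL1 was at 216, 190 and 45.5 CPM in control 1, 2 and 3 and at 1.71, 1.45 and 180 CPM in knockdown 1, 2 and 3. CTSC went from 439, 388 and 118 CPM to 1.49, 1.07 and 568 CPM in the same order. ADSS2 was likewise lowest in knockdown 1 and 2 but with a much smaller span, from 67.6 to 109 CPM.

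The nearest genes to the other members were C2orf74-AS1 (r = 0.9891) and INPP1 (r = 0.9885) for VGF, DDIAS (r = 0.9923) and MYL6B (r = 0.9916) for CHGB, GMFB (r = 0.9887) and MIR222HG (r = 0.9884) for NTS, and INPP5E (r = 0.984) and PIEZO1 (r = 0.9754) for ENO2. MYL6B, a myosin light chain, was high and low in the same libraries as CHGB, with 5.28, 3.06 and 5.51 CPM in control 1, 2 and 3 and 17.0, 15.8 and 3.73 CPM in knockdown 1, 2 and 3.

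Other genes of secretory granules and of neuroendocrine cells, with their regulators, hormones and receptors, were counted next. They are 216 genes of 9 lists, of which 79 were at 0 in all libraries. The filter for knockdown 1 and 2 against control 1 and 2 was passed by 98. In this comparison 7.15% of all 15596 genes tested rose and 6.41% fell. Of the 98 list genes, 12 rose, 9 fell and 77 were not called, with a median log2 fold change of 0.19 against 0.01 over all genes tested. These counts are 12.2% and 9.18% of the tested list genes, and their difference from the shares of all genes was not tested. The 12 include EDN2 and TH, at 0 in control 1 and 2, and SNAP25, with 4 and 1 counts there. These passed the filter through the knockdown libraries alone. The 9 include NTSR1, ELAVL3 and RAB27B, which passed only because of the controls. In knockdown 1 and 2 NTSR1 was at 0, ELAVL3 had 8 and 8 counts and RAB27B had 0 and 50. Such genes could be called in 1 direction only. All 21 calls were lost with a block for the replicate number or without any 1 of the 4 libraries. At an unadjusted edgeR p under 0.05 stood 43 of the 98, against 5128 of all 15596 genes tested. In week 3 edgeR called 0 of 96 list genes, with 30 at an unadjusted p under 0.05 against 3212 of all 15386 tested. DESeq2 called 7 list genes higher and 7 lower, against 707 and 710 over all genes tested. Over all 6 libraries edgeR called 0 of the 96, with 12 at an unadjusted p under 0.05 against 1267 of 15386. DESeq2 called 2 list genes there, BAIAP3 and UNC13A, against 127 higher and 65 lower over all genes tested. In the values that follow, "called" means an edgeR adjusted p under 0.05 over all genes tested.

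Among the 10 tested genes of peptide processing, 1 rose, 1 fell and the median log2 fold change was -0.09. QPCT, the enzyme that closes the N-terminal glutamine of peptides such as neurotensin, was at 14.6 and 18.8 CPM in control 1 and 2 and rose to 110 and 54.6 CPM in knockdown 1 and 2 (log2 fold change 2.29, SE 0.418, edgeR adjusted p = 0.046). PCSK1N, a granin-like inhibitor of the convertase PCSK1, fell from 38.4 and 49.3 CPM to 14.9 and 15.7 CPM (-1.53, SE 0.178, edgeR adjusted p = 0.0255). In control 3, outside this comparison, PCSK1N was near the knockdown level, at 16.4 CPM, whereas QPCT was at 3.75 CPM. The 100 genes nearest to PCSK1N also lay below 0, with a median of -0.91. CPD, a carboxypeptidase and the most abundant of the list, had a log2 fold change of -0.08.

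Among the 26 tested genes of the granule membrane and of exocytosis, 5 rose, 1 fell and the median was 0.38. SNAP25, a SNARE protein of synaptic and granule fusion, rose from 0.141 and 0.036 CPM to 2.51 and 3.28 CPM (4 and 1 counts against 91 and 154, edgeR adjusted p = 0.0244). SNAP25 passed the filter through the knockdown libraries alone, so it could only be called higher. Control 3, which is outside this comparison, stood above both knockdown libraries for SNAP25, at 5.98 CPM. UNC13A, which primes vesicles, rose from 0.457 and 0.973 CPM to 9.86 and 11.2 CPM (edgeR adjusted p = 0.0244). BAIAP3 and SYTL4, of vesicle traffic and granule docking, rose by log2 fold changes of 1.56 and 2.40. SYTL4 was at 2.29 and 2.86 CPM in knockdown 1 and 2 but at 8.51 CPM in control 3. UNC13A and BAIAP3 stayed low in control 3, at 0.72 and 4.44 CPM. RAB27B, a small GTPase that docks granules at the membrane, was the abundant gene of the list and fell from 152 and 116 CPM to 0 and 1.07 CPM (edgeR adjusted p = 0.0419). It passed the filter only because of the controls, so it could only be called lower.

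Among the 10 tested genes of the REST complex and the Notch repressors, 1 rose and 2 fell. REST itself, the repressor of neuronal and endocrine genes, rose from 29.4 and 33.8 CPM to 49.3 and 51.2 CPM (log2 fold change 0.66, SE 0.124, edgeR adjusted p = 0.0482). HDAC2, a histone deacetylase, fell by 0.66 and EHMT2, a histone methyltransferase, fell by 0.56 on the log2 scale (edgeR adjusted p = 0.0352 and 0.0399), the latter beside neighbours with a median of -0.43. Of 28 neuroendocrine and islet transcription factors only 9 were tested and 0 were called, with a median of 0.83. At an unadjusted edgeR p under 0.05 stood 5 of the 9, against 5128 of all 15596 genes tested. PAX6 was at -0.86 (edgeR adjusted p = 0.052) and ONECUT2 at 0.83 (edgeR adjusted p = 0.0688).

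Of 49 other neuropeptides and peptide hormones, 28 were at 0 in all libraries and 12 were tested, of which 3 rose. ADM, adrenomedullin, rose from 8.02 and 9.58 CPM to 76.4 and 103 CPM (log2 fold change 3.34, SE 0.218, edgeR adjusted p = 0.0133). NMU, neuromedin U, rose by 1.47. EDN2, endothelin 2, had 14 and 18 counts against 0 in control 1 and 2. Set against a floor of 3 counts over these controls, EDN2 was 7.86-fold higher. EDN2 passed the filter through the knockdown libraries alone, so it could only be called higher. GAL, galanin, was the most abundant peptide hormone of the list, at 127 and 158 CPM in control 1 and 2 and 108 and 148 CPM in knockdown 1 and 2, and was not called.

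Among 7 tested receptors, 1 fell. NTSR1, the receptor of neurotensin, was at 48.9, 38.1 and 69.6 CPM in control 1, 2 and 3 and at 0, 0 and 33.5 CPM in knockdown 1, 2 and 3. Set against a floor of 3 counts it was at least 1110-fold lower in knockdown 1 and 2 than in control 1 and 2 (edgeR adjusted p = 0.0123), in the same libraries in which NTS had its highest levels. C1QBP, whose values in knockdown 1 and 2 were 153 and 5.97 CPM, was not called.

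Among 9 tested neuronal and neuroendocrine markers, 1 rose and 2 fell. SYP, synaptophysin, fell from 14.5 and 14.1 CPM to 6.91 and 6.69 CPM (log2 fold change -1.08, edgeR adjusted p = 0.0313), beside neighbours with a median of -0.91. Control 3 was near the knockdown level for SYP, at 7.6 CPM. ELAVL3, a neuronal RNA-binding protein, fell by 2.21 on the log2 scale (edgeR adjusted p = 0.0379). It was at 0.221 and 0.17 CPM in knockdown 1 and 2 and at 0.188 CPM in control 3. ELAVL3 passed the filter only because of control 1 and 2, so it could only be called lower. TH, tyrosine hydroxylase of catecholamine synthesis, had 15 and 23 counts in knockdown 1 and 2 against 0 in all controls. Set against a floor of 3 counts over control 1 and 2, TH was 9.33-fold higher. Like EDN2, TH passed the filter through the knockdown libraries alone and could only be called higher. GNAS, which codes for the stimulatory G protein alpha subunit and also for a granin-like protein, fell by 0.65 on the log2 scale as the single call among 4 relatives of granins and enolases.

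All 11 CREB factors and coactivators of the list were tested, and 1 rose and 1 fell. CREB3L1 fell from 54.2 and 72.0 CPM to 3.87 and 4.62 CPM (log2 fold change -3.90, SE 0.228, edgeR adjusted p = 0.012), with 60.1 CPM in knockdown 3. CREB3L2 rose from 14.4 and 15 CPM to 37.9 and 36.7 CPM (1.34, SE 0.125, edgeR adjusted p = 0.0193). In control 3 CREB3L1 was at 49.5 CPM and CREB3L2 at 30.6 CPM. Both are anchored in the endoplasmic reticulum and released by cleavage.

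Only 2 of a panel of 6 neuroendocrine markers had a count in any library. SCG2, VGF and GAL lie outside this panel and reached the levels given above. Of the neuroendocrine markers, SYP and CHGA had counts, and INSM1, NEUROD1 and NCAM1 were at 0 throughout, as were the 5 islet hormones INS, GCG, SST, PPY and IAPP. The summed neuroendocrine markers lay between 7.6 and 14.5 CPM in the controls and between 6.69 and 7.18 CPM in knockdown 1 and 2. The 6 markers of a carcinoma line summed to between 8730 and 14700 CPM in the 6 libraries, but single markers moved in opposite directions. Means of control 1 and 2 and of knockdown 1 and 2 were 836 and 5330 CPM for KRT8 and 631 and 3340 CPM for KRT18. They were 8640 and 4250 CPM for VIM and 44.6 and 13.7 CPM for KRT19. Control 3 was at 2420, 1570, 10600 and 77.6 CPM for these genes in that order. Knockdown 3 was at 738, 554, 8540 and 75.0 CPM. EPCAM and CDH1 were at 0 in the controls and at most 0.128 CPM in knockdown 1 and 2. The 5 endothelial markers summed to at most 2.96 CPM in the controls and to between 37.6 and 60.7 CPM in knockdown 1 and 2, with PECAM1, KDR and TEK at 0. The 9 fibroblast markers, with LUM and FAP at 0, summed to 990 CPM in control 3, to 79.7 CPM in the lowest control and to between 86.5 and 109 CPM in knockdown 1 and 2. Of these, COL1A2 was at 67.7 and 71.9 CPM in control 1 and 2 and at 0 in knockdown 1 and 2, whereas COL3A1 was at 11.1 and 12.3 CPM and at 107 and 84.9 CPM. In control 3 COL1A2 was at 931 CPM and COL3A1 at 59.1 CPM. The leukocyte markers, with PTPRC and CD3E at 0, summed to between 1.62 and 6.35 CPM in the controls and between 0.608 and 0.788 CPM in knockdown 1 and 2, and acinar markers did not exceed 0.426 CPM. The part of these differences in the values of the members was not tested, and in bulk RNA fewer cells with a transcript and less of it per cell cannot be told apart.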

How the data were processed

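Total RNA of 6 libraries (3 control, 3 knockdown) was prepared with a TruSeq kit. The authors' deposited values are whole-number counts per gene; the submitters' processing notes name FastQC, STAR and StringTie, while their settings, the genome build, the annotation and the use of strand in counting were not given in the sources used here, so reads of overlapping or antisense genes cannot be told apart. Of 42540 rows, 17321 were at 0 and 159 repeat rows of a symbol (at most 0.102% of a library) were left out.

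Groups were taken from the sample titles. Genes were tested with edgeR 4.0.16 in R 4.3.3 (filterByExpr, TMM, quasi-likelihood F test, Benjamini-Hochberg at 0.05). Knockdown 1 and 2 were fitted with control 1 and 2 alone, week 3 as a contrast in a model of 4 groups over 6 libraries, and all libraries by group. DESeq2 1.42.0, limma-voom (limma 3.58.1), other scalings and filters, a replicate block and each library left out were alternatives. Scripts were tested on simulated counts. Log2 ratios of single numbers take a prior count of 2. Lengths are exon unions of GENCODE genes, and promoters and gene order come from RefSeq (GRCh38.p14); 15425 of 15580 tested symbols were placed. Python 3.11.15 with pandas 2.3.3, numpy 2.4.6 and matplotlib 3.10.9 was used.

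The members and lists were chosen with earlier results of these data known. Named genes are all members, PPP2R1A, up to 4 called genes of a list with the smallest p (else up to 2), the most abundant gene of a list, and the 5 (SCG2) or 2 genes most correlated with a member; MLXP1 and the absent markers were added, and the results of 2 listed genes are not reported here. The study calls the replicates independent and made over 3 weeks, without naming separate cultures. Each p therefore reflects the spread of these libraries, which may be technical. A floor covers the counting error of the group at 0 alone, not that of the group with counts. Deviations of same-numbered libraries from their groups correlated at 0.0154, -0.0118 and -0.0995, and at 0.102 for replicate 1 minus replicate 2. Not every value passed 0.1, so the block was kept as an alternative, although the number may mark a shared week, and calls lost with it are given beside the results.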

Additional observations from a re-analysis of the deposited data

Results flagged for a closer look

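The log2 ratio of week 3 had the opposite sign to both other weeks for 3 members. It was 2.20 for SCG2, 0.65 for VGF and -1.37 for CHGB, and these differences were not tested, because weeks 1 and 2 chose the members.

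For the targeted gene and 10 genes of the lists, the effect in week 3 differed from that in weeks 1 and 2 by an interaction test in edgeR. The difference on the log2 scale was 1.84 for PPP2R1A (edgeR adjusted p = 0.0256). It was 3.22 for PCSK1N, 2.02 for SYP, 4.54 for ELAVL3, 4.17 for CREB3L1 and 12.54 for NTSR1, all of which were lower in knockdown 1 and 2 (edgeR adjusted p = 0.0351, 0.0437, 0.0483, 0.033 and 0.0306). It was -6.45 for SYTL4, -10.13 for SNAP25, -4.38 for ADM and -2.31 for CREB3L2, all of which were higher there (edgeR adjusted p = 0.025, 0.0338, 0.0331 and 0.0338). It was -1.19 for PCSK7, a proprotein convertase that is named here after its value was seen (edgeR adjusted p = 0.044). The values of NTSR1 and SNAP25 depend on the prior count, since NTSR1 was at 0 in knockdown 1 and 2 and SNAP25 had 4 and 1 counts in control 1 and 2. Each difference also takes in control 3, which is 1 library. SYTL4 was at 0.457, 0.504 and 8.51 CPM in control 1, 2 and 3, and SNAP25 at 0.141, 0.036 and 5.98 CPM. In control 3 PCSK1N, SYP, ELAVL3 and CREB3L2 were at 16.4, 7.6, 0.188 and 30.6 CPM. Those levels lay nearer to knockdown 1 and 2 than to control 1 and 2. For PPP2R1A, CREB3L1, NTSR1 and ADM control 3 lay nearer to control 1 and 2. The part of control 3 was not tested. Over all genes 362 such differences were called higher and 337 lower, and 0 of either with the replicate block or without control 1 or control 2.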

How the results depend on the processing

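Members kept their direction in each setting run, except ENO2 in knockdown 1 and 2, which was at -0.21 and at 0.08 without control 1. CHGB was at 2.64 and between 1.99 and 3.88 with a library left out, and NTS at 1.09 and at 0.59 without knockdown 2. SCG2 in knockdown 1 and 2 was at -7.99 on the log2 scale, at -7.54 against all 3 controls, at -8.58 relative to its 100 nearest genes and between -8.19 and -7.79 with a library left out. The list calls depended on the method. The 12 genes that rose became 21 by DESeq2, 4 against all 3 controls, 0 with the replicate block and 0 without any 1 library (range 0 to 0), and the 9 that fell became 16, 5, 0 and 0, and 5 without a filter on low counts. In week 3 the 0 calls became 7 higher and 7 lower by DESeq2, which also called 1 member (SCG2), and over all 6 libraries 0 became 2 by DESeq2 and 9 without knockdown 3 (range 0 to 9). Over all genes, calls in knockdown 1 and 2 went from 1115 higher and 999 lower to 1847 and 1853 by DESeq2, to 822 and 558 without a filter and to 0 with the replicate block or any 1 library left out. With plain library sizes the median went from 0.01 to 0.15 and the split to 1406 and 744. Week 3 went from 28 and 14 calls to 707 and 710 by DESeq2, 2 and 2 by limma-voom and 0 with the replicate block. Fewer libraries leave fewer degrees of freedom; the cause of the other changes was not tested. With 1 library per group, week 3 limits every comparison made there.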
